A study of Drosophila melanogaster with 16 samples.

Results

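Fed larvae that lack the kinase ERK7 were compared with fed control larvae over all 10459 genes of the deposited table, using the 8 fed libraries of the 16 in the series (4 of each genotype). ERK7 is an atypical MAP kinase, related to mammalian MAPK15, that activates itself. The mutant group was made of male larvae of the *ERK7* 1 line on standard food. This is 1 CRISPR/Cas9 line with a frameshift deletion of 10 bases. The study describes the allele as a likely null and the mutant males as infertile. The control group was made of male larvae of a sister line of that screen, labelled wild type, whose *ERK7* was intact. Both lines had been crossed back to *w1118* and were kept over a balancer, and both groups were fed until collection. By the sample labels, eggs were laid within 3 h, larvae were moved to fresh food after 72 h, and whole larvae of the third instar were collected 6 h after the move. The study's methods place the move at a later age. How many larvae went into a library is not stated, and nothing says that the libraries came from separate cultures, so p-values here measure the spread between libraries. With a single line per genotype, the allele, the remaining genetic background and any difference in age or growth between the lines cannot be told apart.

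Background for these comparisons is the biology of the last larval stage. A larva multiplies its mass by making ribosomes and protein at a high rate under insulin and TOR signalling, and stores fat and protein in the fat body. Later in the same stage, pulses of the steroid hormone ecdysone end feeding, the fat body fills the haemolymph with larval serum proteins, and the epidermis stops and starts cuticle genes around each moult. In males, the testis fills with spermatocytes that switch on a large set of genes used nowhere else. A whole-larva library adds up all of these tissues.

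Values are read counts scaled by the authors to library size (RPM), in which 1 read was worth 0.0505 to 0.0642 RPM in the fed libraries. Depth over the listed genes ran from 19206955 to 20601418 reads in the fed mutant libraries, with a median of 19399949, and from 16482553 to 20057340 reads in the fed control libraries, with a median of 19372821. A difference is given as a log2 fold change of mutant over control on log2(RPM + 1), which pulls the change of genes near 1 RPM towards 0, with its standard error from limma after the ± sign. A gene was called where limma's adjusted p, corrected over all 10459 genes, was under 0.05. A signed value in parentheses after a gene name, or after the words higher by, is its log2 fold change. In a principal component analysis of the 8 libraries, 83.0% of the variance lay on an axis that divided mutants from controls. On that axis control replicate 4 lay farthest from the mutants, at -50.9, against -35.5 to -27.5 for the other fed controls. On the next axis, with 4.42%, control replicate 4 stood apart from the other 7 libraries. It had 213 listed genes without a read, against 29 to 70 in the other fed controls.

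Between fed mutants and fed controls 5390 genes were called, which was 51.5% of all genes tested, with 2675 higher (25.6%) and 2715 lower (26.0%) in mutants. Median centring of the libraries gave 3064 higher and 2316 lower. For 51.2% of genes the 4 mutant and the 4 control libraries did not overlap. Over the whole table the median difference was -0.02 on the log2 scale. Rises above 1 on the log2 scale were called for 1011 genes (9.67% of all tested) and falls below -1 for 362 (3.46%). The counts of gene groups below are read against these shares. When the mean level of 6 testis marker genes was added to the model as a further term, 1644 genes were called, 511 higher and 1133 lower. That level separated the genotypes in the 8 fed libraries, with 3.65 to 3.92 on the log2(RPM + 1) scale in fed mutants against 1.83 to 2.67 in fed controls. Because this level and the genotype go together, a loss of power and a difference in composition cannot be told apart in that fit.

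**Figure D1:**
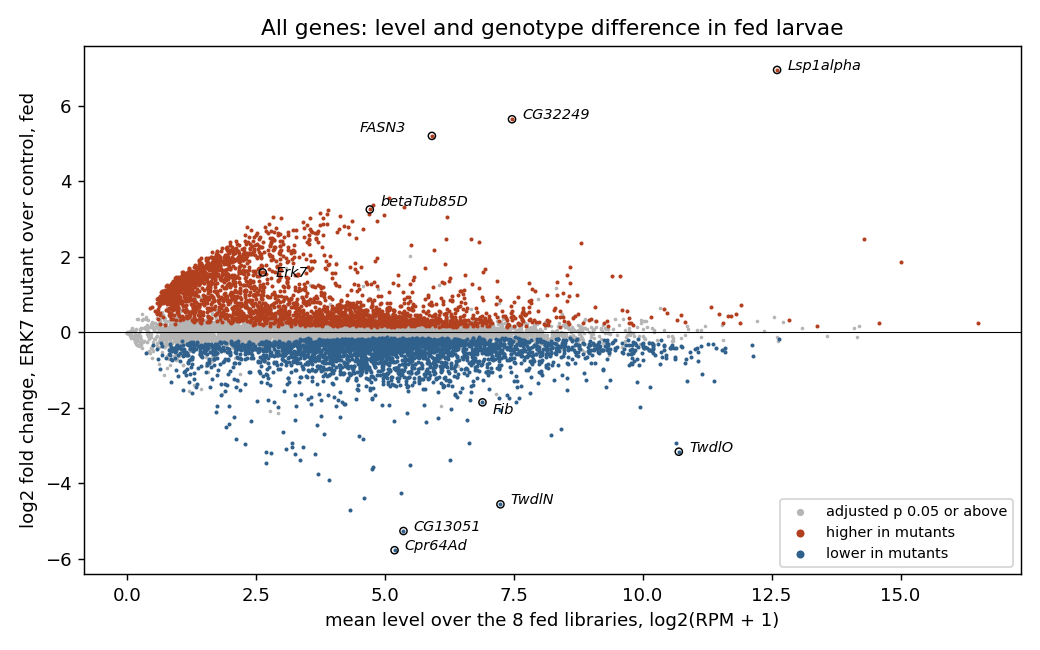
Each point is 1 of the 10459 genes; the x axis is the mean level over the 8 fed libraries as log2(RPM + 1) and the y axis the log2 fold change of ERK7 mutant over control. Red and blue points were called higher and lower in mutants at an adjusted p under 0.05, grey points were not called, and *Lsp1alpha* at 6.96 and *Cpr64Ad* at -5.78 lie farthest from 0.

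*Erk7* itself (FBgn0052703, chromosome X, 9261376 to 9267698 in the release 6 assembly, - strand) carries the deletion at bases 9265051 to 9265060 of chromosome X, in the coding part of exon 4 of the 9 exons of the annotated transcript. The deletion leaves nearly the whole transcript in place, so read counts of this gene cannot check the genotype labels. Its transcript had 5.58, 7.93, 10.2 and 9.24 RPM in fed mutants, against 2.76, 3.05, 2.31 and 0.634 RPM in fed controls. All mutant libraries lay above all control libraries, a log2 fold change of 1.59 ± 0.37 (limma, adjusted p = 0.00235). A two-sided exact permutation test of the means gave p = 0.0286, the smallest that 4 against 4 libraries allow. Control replicate 4 was the lowest library and mutant replicate 3 the highest, as for *betaTub85D* and *S-Lap1* among the testis genes described below. With the testis marker level in the model the *Erk7* log2 fold change was -0.51 (limma adjusted p = 0.139). Because that level goes with the genotype, this fit cannot give the part of testis RNA in the rise, which was not tested. Among the other MAP kinase genes, *p38c* was higher by 0.81 and *p38b* had a log2 fold change of -0.39, while *rl* (ERK) and *bsk* (JNK) were not called.

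**Figure D2:**
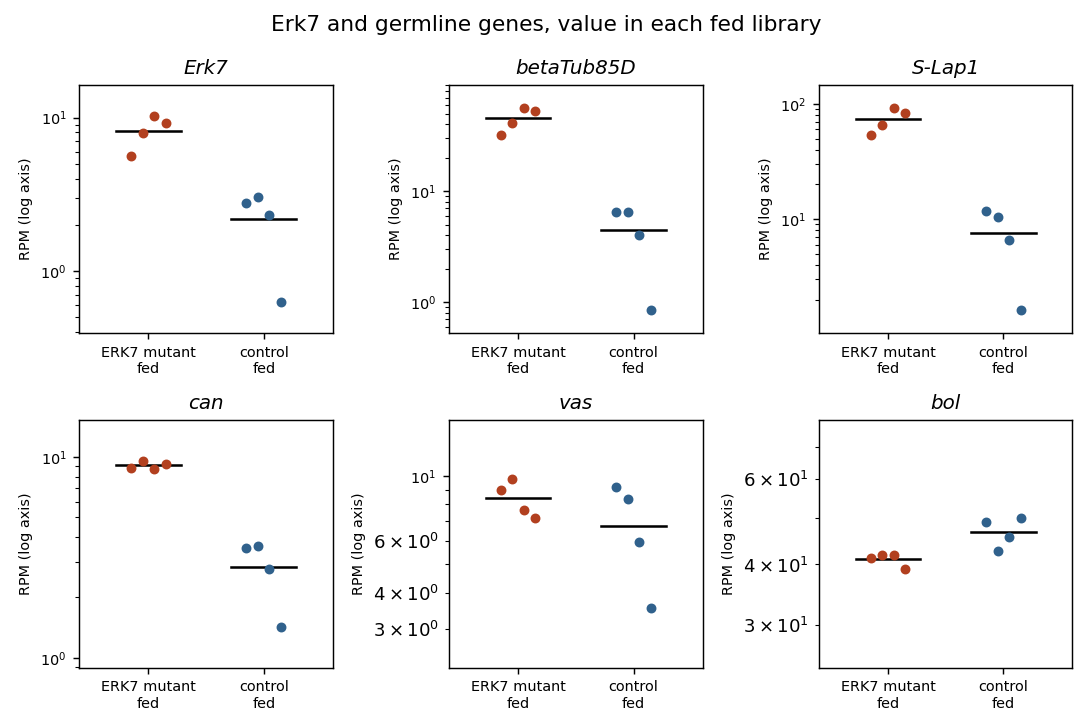
Each panel shows the RPM of 1 gene on a log axis in the 4 ERK7 mutant fed libraries (red, left) and the 4 control fed libraries (blue, right), with points in replicate order and a bar at the mean. *Erk7*, *betaTub85D*, *S-Lap1* and *can* separate the genotypes and are lowest in control replicate 4, *vas* overlaps between them, and *bol* lies slightly lower in every mutant library without a call.

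Of 52 ribosome biogenesis genes 51 were lower and none higher, with a median log2 fold change of -1.22, against a background of 26.0% of genes lower. The exception, *Brf*, a subunit of the RNA polymerase III factor TFIIIB that is named after its value was seen, had a log2 fold change of -0.10 and was not called. *Fib*, which encodes fibrillarin, the methyltransferase of box C/D small nucleolar particles, had 57.8, 50.2, 51.5 and 43.2 RPM in fed mutants, against 175, 203, 183 and 181 RPM in fed controls. The groups lay far apart, and the log2 fold change was -1.86 ± 0.09 (limma, adjusted p = 7.21e-09). Its partners in the same particle, *nop5* and *Nop56*, had log2 fold changes of -1.74 and -1.73. *Nop60B*, the pseudouridine synthase dyskerin, had a log2 fold change of -1.74, but its annotated exons share bases on the same strand with those of 6 other genes. *nclb*, which encodes the chromatin protein PWP1 that promotes transcription by RNA polymerases I and III, had 47.5, 38.7, 45.3 and 36.1 RPM in fed mutants, against 113, 125, 110.1 and 108 RPM in fed controls. Every mutant library was below every control library for *nclb* (log2 fold change -1.43 ± 0.11, limma, adjusted p = 2.15e-07).

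Genes of the ribosomes themselves and of protein synthesis were lower too. All 66 mitochondrial ribosomal protein genes were called lower (median -0.81). The largest difference was that of *mRpL39*, with 40.9, 42.5, 43.3 and 32.2 RPM in fed mutants, against 93.9, 89.1, 90.1 and 87.6 RPM in fed controls, a log2 fold change of -1.17 ± 0.09 (limma, adjusted p = 1.39e-07). Of 84 cytosolic ribosomal protein genes 75 were lower (median -0.47) and 6 were higher. After quantile normalization 58 were lower and 4 higher, with a median of -0.27. With the testis marker level in the model 16 were lower and 0 higher, with a median of -0.29. The lowest member was *RpLP0-like* at -1.30, a homologue of a protein of ribosome assembly. The 6 higher members were *RpS3*, *RpS10a*, *RpL22-like*, *RpS19b*, *RpL37b* and *RpL10Aa*, and these 6 were named as a group after their values were seen. Without control replicate 4 only 3 members were higher. Of 29 aminoacyl-tRNA synthetase genes, which charge transfer RNAs, 26 were lower (median -0.54), led by *CG5414* at -1.02 and *Aats-lys* at -0.86. None of these 29 genes was higher. A reference transcript of the study's quantitative PCR, *RpL32*, was read at 0.605 to 1.16 RPM in fed mutants and 1.29 to 2.05 RPM in fed controls and was called lower (-0.51). This is a low level for a ribosomal protein gene, and how completely the counting captured its reads was not tested. *Cdk7*, the study's reference for products of RNA polymerases I and III, was called lower too.

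**Figure D3:**
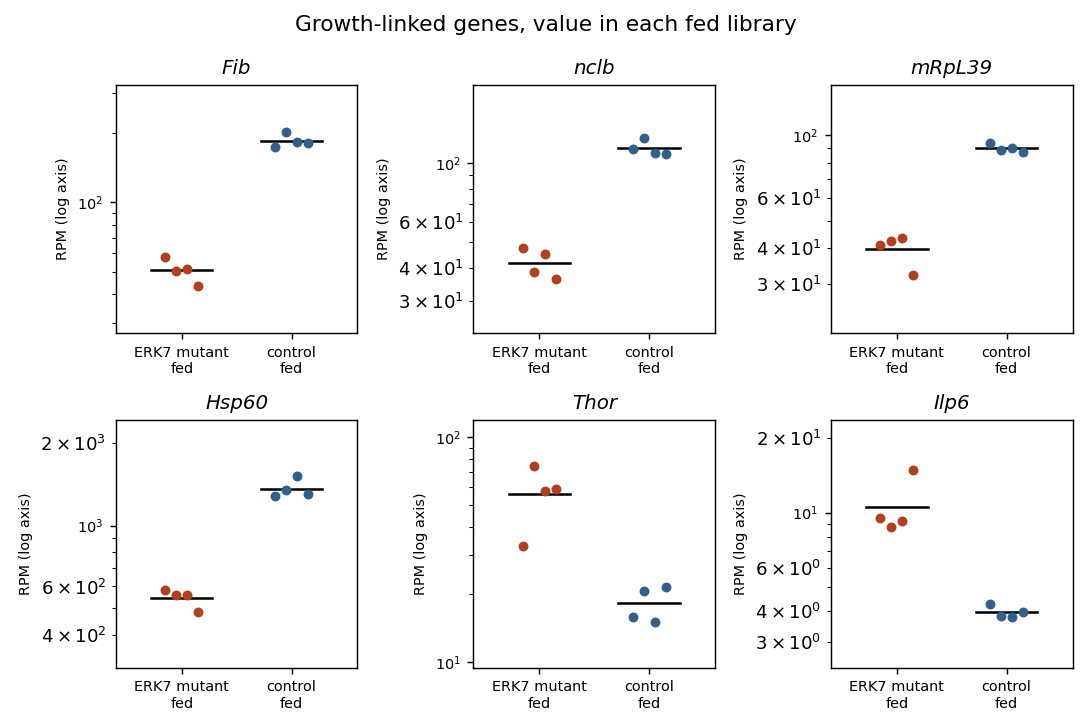
Each panel shows the RPM of 1 gene on a log axis in the 4 ERK7 mutant fed libraries (red, left) and the 4 control fed libraries (blue, right), with a bar at the mean. *Fib*, *nclb*, *mRpL39* and *Hsp60* were lower in all mutant libraries, and *Thor* and *Ilp6* were higher in all of them.

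The main mitochondrial chaperone gene was lower as well. *Hsp60*, the chaperonin of the mitochondrial matrix, had 582, 559.6, 558 and 485 RPM in fed mutants, against 1279, 1353, 1522 and 1301 RPM in fed controls, without overlap (log2 fold change -1.32 ± 0.09, limma, adjusted p = 1.03e-07). Among 72 genes of the respiratory chain and ATP synthase 41 were lower and 11 higher (median -0.27), and among 27 subunits of the vacuolar proton pump 17 were lower and 5 higher (median -0.29). Scaling moved these small shifts. After quantile normalization 22 respiratory genes were lower and 10 higher and 7 pump genes lower and 6 higher, and with the testis term only 2 respiratory genes and no pump gene were lower. Proteasome subunits gave a flat comparison, with 0 of 31 genes called by limma and log2 fold changes between -0.11 and 0.13. At an unadjusted p under 0.05, 0 of the 31 were past the threshold, edgeR called 0, DESeq2 called 2 lower, limma called 2 lower without mutant replicate 1, and quantile normalization gave 11 higher and 1 lower.

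Genes that respond to nutrient signals moved in a mixed way. *Thor*, which encodes the translation inhibitor 4E-BP and is a target of the transcription factor FOXO, had 32.9, 74.8, 57.7 and 58.7 RPM in fed mutants, against 15.9, 20.7, 15.1 and 21.5 RPM in fed controls, a log2 fold change of 1.52 ± 0.23 (limma, adjusted p = 7.94e-05). *Ilp6*, the insulin-like peptide of the fat body, had 9.49, 8.74, 9.20 and 14.8 RPM in fed mutants, against 4.27, 3.83, 3.79 and 3.96 RPM in fed controls (log2 fold change 1.19 ± 0.15, limma, adjusted p = 1.87e-05). Both were higher in every mutant library than in any control library. The glucosidase gene *tobi*, a target of insulin and glucagon-like signals, was higher by 1.10, and *AkhR*, the receptor of adipokinetic hormone, by 0.49. The insulin-like peptides of the brain were not called, with -0.24 for *Ilp2*, 0.09 for *Ilp3* and -0.04 for *Ilp5*. *sug*, which encodes the sugar-responsive factor Sugarbabe and shares exon bases with 1 other gene on its strand, had 17.8 to 24.5 RPM in fed mutants, against 18.0 to 22.2 RPM in fed controls. These values overlapped, and its log2 fold change was 0.05 ± 0.25 (limma, adjusted p = 0.875). In all, 7 of 26 genes of sugar sensing and insulin signalling were higher and 1 was lower, against 7 higher and 6 lower after quantile normalization and 7 higher and 3 lower in the fit of the fed libraries alone. Over all genes 25.6% were higher and 26.0% lower. The amino acid transporter gene *mnd* had a log2 fold change of -0.94, and of 23 genes of TOR signalling and nutrient stress 9 were lower and 4 higher, against 9 lower and 9 higher after quantile normalization. Of 21 core autophagy genes 7 were higher and 1 lower, with no called log2 fold change above 0.57 in size.

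Of 36 genes of DNA replication and the cell cycle 12 were higher and 16 lower. The higher ones included *aurA* (1.21), *fzy* (0.87) and *polo* (0.79), which encode Aurora A kinase, the Cdc20 activator of the anaphase-promoting complex and Polo kinase. With the testis term the log2 fold changes of these 3 genes were 0.26, 0.28 and 0.18, and none was called. Over the 36 genes that fit gave 0 higher and 12 lower, with a median of -0.29.

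Genes linked to age within the last larval stage differed between the genotypes. The larval serum proteins are made by the fat body in the late feeding period and stored for metamorphosis. *Lsp1alpha* (FBgn0002562, chromosome X, 12490291 to 12492982 in the release 6 assembly, + strand) had 12125, 10837, 10723 and 15298 RPM in fed mutants, against 540.0, 67.6, 312 and 6.81 RPM in fed controls, the largest rise of the table, with a log2 fold change of 6.96 ± 0.94 (limma, adjusted p = 2.98e-05). Control libraries were spread over 79.3-fold, from replicate 1 as the highest to replicate 4 as the lowest, and all lay far below the mutants. *Lsp1gamma* had 55619, 47799, 46470.1 and 55317 RPM in fed mutants, against 17884, 14638, 19227 and 7932 RPM in fed controls (log2 fold change 1.85 ± 0.35, limma, adjusted p = 0.000400). *Lsp1beta* had 37104, 31661, 28998 and 34594 RPM in fed mutants, against 7684, 6230.1, 11684 and 2289.9 RPM in fed controls. Its groups did not overlap either (log2 fold change 2.46 ± 0.90, limma, adjusted p = 0.0324). The *Lsp1beta* call was lost without mutant replicate 1, 2, 3 or 4 or control replicate 2 or 4, with limma adjusted p up to 0.0990, edgeR gave an adjusted p of 0.0586, and the fit of the 8 fed libraries alone gave 0.00103. With the testis term none of these 3 genes was called. Together the 3 genes, the only ones measured of 6 listed for larval serum and the late fat body, reached 86191 to 105209.9 RPM in fed mutants. Fed controls had 10229 to 31224 RPM.

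Among 9 measured genes of ecdysone synthesis 6 were higher and none lower (median 0.44), and among 18 response genes 6 were higher and none lower (median 0.16), for the response genes a share near the 25.6% of all genes higher. In the fit of the fed libraries alone 9 response genes were higher and 2 lower. In fasted larvae 3 response genes were higher and 8 lower (median -0.36) and 3 synthesis genes were higher and none lower, and the interaction with diet was called for 10 of 18 response and 4 of 9 synthesis genes. *sro*, an enzyme of ecdysone synthesis in the prothoracic gland, had 3.45, 3.13, 2.02 and 3.08 RPM in fed mutants, against 0.270, 0.259, 0.321 and 0.422 RPM in fed controls. The 4 mutant values lay far above the control values, with a log2 fold change of 1.56 ± 0.12 (limma, adjusted p = 1.44e-07). *spok*, another enzyme of the gland, was higher by 0.68, and *shd*, which makes the active hormone in other tissues, by 0.75. *br*, the early response gene of the last stage, had 146, 148, 104 and 188 RPM in fed mutants, against 59.3, 50.7, 68.9 and 57.2 RPM in fed controls (log2 fold change 1.27 ± 0.14, limma, adjusted p = 4.37e-06). The receptor gene *EcR*, named after its value was seen, was higher by 0.55, and *ImpE1*, an ecdysone-inducible gene of imaginal discs, by 1.19. Of 5 measured genes of the salivary glue and new-glue families, of 13 listed, none was higher and 1 was lower. After quantile normalization or without control replicate 4, 1 was higher. The measured members included *ng1* (-0.21) and *ng3* (0.48), which were not called, and *Pig1* (-0.99), which was lower.

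**Figure D4:**
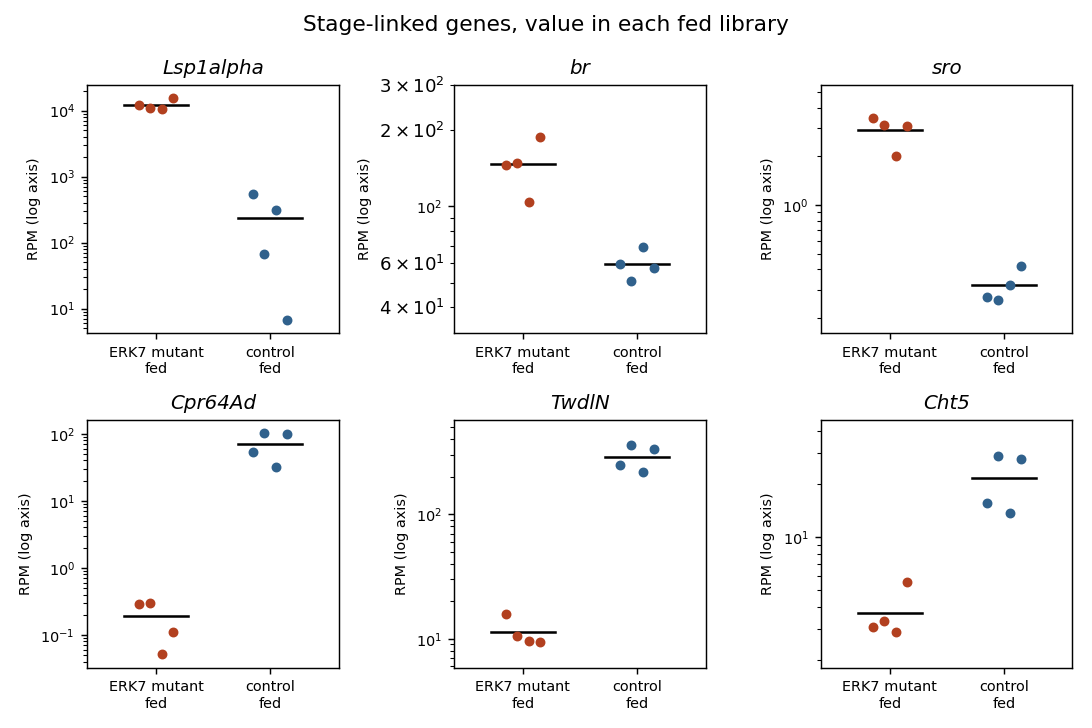
Each panel shows the RPM of 1 gene on a log axis in the 4 ERK7 mutant fed libraries (red, left) and the 4 control fed libraries (blue, right), with a bar at the mean. *Lsp1alpha*, *br* and *sro* were higher and *Cpr64Ad*, *TwdlN* and *Cht5* lower in all mutant libraries, and the control libraries of *Lsp1alpha* run from 6.81 to 540.0.

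Cuticle genes changed in both directions, with the largest falls of the table among them. Of 95 cuticle protein genes 45 were lower and 16 higher (median -0.62). *Cpr64Ad* (FBgn0035513, chromosome arm 3L, 4215379 to 4216414 in the release 6 assembly, + strand) had 0.287, 0.303, 0.0517 and 0.110 RPM in fed mutants, against 53.0, 101, 31.4 and 97.9 RPM in fed controls. It was near the detection limit in mutants, with at most 6 reads in a library, and its log2 fold change was -5.78 ± 0.55 (limma, adjusted p = 1.29e-06). *TwdlN* and *TwdlO*, members of the Tweedle family of body-shape cuticle proteins, had log2 fold changes of -4.56 ± 0.43 (limma, adjusted p = 1.11e-06) and -3.16 ± 0.17 (limma, adjusted p = 1.36e-08). Per library, *TwdlO* had 439, 412, 286 and 234 RPM in fed mutants, against 2824, 3175, 2984 and 2966 RPM in fed controls. *Lcp65Af*, a larval cuticle gene, had 571, 364, 358 and 245 RPM in fed mutants, against 2584, 2960.3, 2655 and 3066 RPM in fed controls (log2 fold change -2.93 ± 0.24, limma, adjusted p = 3.64e-07). *Cpr76Bb* had a log2 fold change of -3.91. Against this direction *Lcp2*, another larval cuticle gene, had 127, 123, 98.3 and 175 RPM in fed mutants, against 23.8, 12.7, 13.8 and 10.1 RPM in fed controls (log2 fold change 3.07 ± 0.26, limma, adjusted p = 3.78e-07), and *Cpr49Ac* was higher by 3.37. Summed over the 95 genes, the level was 18388 to 24916 RPM in fed mutants, against 28253 to 31538 RPM in fed controls. With the testis term 18 were lower and 10 higher and the median was 0.07.

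Other genes with the largest falls are little described. *CG13051* had 0.920, 1.06, 1.03 and 1.21 RPM in fed mutants, against 69.8, 98.4, 62.5 and 86.7 RPM in fed controls, and its log2 fold change of -5.27 ± 0.46 (limma, adjusted p = 5.34e-07) was next to that of *Cpr64Ad*. *CG14569*, *CG13068*, *CG34268* and *CG13047* had log2 fold changes of -4.38, -4.26, -3.61 and -3.52. All 5 of these genes, like *Cpr64Ad* and *Lcp65Af*, lie on chromosome arm 3L, which holds 2056 of the 10305 genes with a known position. Over that whole arm 25.9% of genes were lower, against 26.0% of all genes tested. *CG14374*, *CG32266* and *CG9780* had log2 fold changes of -3.38, -2.94 and -2.75. In each of them all mutant libraries lay below all control libraries. The chitinase gene *Cht5*, used when old cuticle is digested, had 3.10, 3.33, 2.89 and 5.55 RPM in fed mutants, against 15.7, 29.1, 13.8 and 27.9 RPM in fed controls (log2 fold change -2.22 ± 0.27, limma, adjusted p = 1.18e-05), and another chitinase gene, *Cht12*, was higher by 1.71. *y*, the *yellow* gene of black cuticle pigment, had 0.575, 3.18, 0.930 and 1.76 RPM in fed mutants, against 6.65, 8.64, 5.01 and 11.2 RPM in fed controls (log2 fold change -1.82 ± 0.46, limma, adjusted p = 0.00400). Its call was not made by limma-voom (adjusted p = 0.116).

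Genes of the testis were higher as a group. Of 46 measured genes of the spermatocyte program, of 68 listed, 42 were higher and none lower (median 1.53), against 25.6% of all genes higher. *betaTub85D*, the tubulin of the male germline, had 32.0, 41.5, 56.8 and 53.3 RPM in fed mutants, against 6.54, 6.52, 4.05 and 0.845 RPM in fed controls (log2 fold change 3.26 ± 0.46, limma, adjusted p = 3.93e-05). *S-Lap1*, a leucyl aminopeptidase of sperm, had 54.0, 65.6, 91.4 and 83.6 RPM in fed mutants, against 11.7, 10.3, 6.61 and 1.64 RPM in fed controls (log2 fold change 3.32 ± 0.50, limma, adjusted p = 7.42e-05). In both genes control replicate 4 was far below the other controls and mutant replicate 3 was the highest library. *S-Lap4*, *S-Lap8* and *Mst77F*, which encode 2 further aminopeptidases of this family and a sperm chromatin protein, had log2 fold changes of 3.15, 2.96 and 3.14, and among the 12 largest rises of genes above the median level *CG12699*, *CG8565* and *CG7886* had the same order of libraries as *S-Lap1*, with log2 fold changes of 3.11, 2.73 and 2.50. Summed over the program, the level was 467 to 683 RPM in fed mutants, against 94.0 to 193 RPM in fed controls. In these bulk libraries a larger number of spermatocytes and more RNA per spermatocyte cannot be told apart. Without mutant replicate 3 and control replicate 4 together, an alternative chosen after the data were seen, 37 members were higher with a median of 1.38.

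Markers of the germline were not all called. Of 6 measured testis markers, of 10 listed, 4 were higher (*betaTub85D*, *fzo*, *can* and *Rbp4*). *fzo*, the mitofusin of spermatids, had 3.74, 3.89, 7.60 and 6.16 RPM in fed mutants, against 0.595, 0.259, 0.449 and 0.158 RPM in fed controls (log2 fold change 2.18 ± 0.25, limma, adjusted p = 6.65e-06). *can*, a testis-specific subunit of the general transcription machinery, had a log2 fold change of 1.44. *aly*, a regulator of the same program, had a log2 fold change of 0.33 and was not called, and *bol*, a meiotic translation factor, had 41.2, 41.8, 41.9 and 39.1 RPM in fed mutants, against 49.0, 42.6, 45.7 and 49.8 RPM in fed controls, which was not called either (-0.18) although the libraries did not overlap. Of 9 measured genes of early germ cells 2 were higher and none lower. Without mutant replicate 2, 3 or 4 or control replicate 3 or 4 only 1 was higher, after quantile normalization none was higher and 2 were lower, and with the testis term none was higher and 5 were lower. *vas*, the germline RNA helicase, had 8.97, 9.75, 7.65 and 7.20 RPM in fed mutants, against 9.19, 8.33, 5.97 and 3.54 RPM in fed controls (its exons overlap those of 1 other gene on the same strand), and *bam*, the differentiation switch of the stem cell lineage, had a log2 fold change of 0.36, neither of which was called. Control replicate 4 was also the lowest library for *vas*. The summed level of the 6 markers was 115 to 146 RPM in fed mutants, against 57.5 to 75.9 RPM in fed controls. Of the 46 program genes 4 were still higher and 1 lower with the testis term, whose 6 markers are part of the same tissue and are therefore not independent of the list. Of 13 measured genes of sex and dosage compensation, of 15 listed, 4 were higher and 2 lower (median 0.14). After quantile normalization 4 were higher and 3 lower. The largest change among them was a fall, that of the yolk protein gene *Yp3* (-1.24). *dsx*, the sex-specific transcription factor *doublesex*, had 14.7, 14.1, 14.3 and 13.3 RPM in fed mutants, against 5.79, 5.95, 6.93 and 5.02 RPM in fed controls, with a log2 fold change of 1.13 ± 0.12 (limma, adjusted p = 3.28e-06). *roX2*, a non-coding RNA of dosage compensation in males, had 4.31, 3.64, 3.36 and 3.08 RPM in fed mutants, against 2.05, 2.12, 0.835 and 0.898 RPM in fed controls (log2 fold change 0.93 ± 0.23, limma, adjusted p = 0.00350).

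All 11 higher genes of the respiratory chain were copies whose names end in L or a number after L, or are annotated so now, and none of the other 61 members was higher. Among cytosolic ribosomal proteins the copies were a hand-picked list of variant genes, *RpLP0-like* among them, and not a rule on name endings. There the split was less complete, with 5 of 10 copies higher and 3 lower, and 1 of the other 74 members higher and 72 lower. These splits were seen in the values and then counted, so they are a description. *ND-49L* had 5.52, 6.52, 9.61 and 8.96 RPM in fed mutants, against 1.08, 0.931, 0.963 and 0.422 RPM in fed controls (log2 fold change 2.21 ± 0.27, limma, adjusted p = 1.21e-05), and *ATPsynGL*, *ND-51L1* and *ATPsynbetaL* had log2 fold changes of 1.65, 1.46 and 1.45. In the proton pump *Vha68-3*, *VhaAC39-2* and *Vha100-3* had log2 fold changes of 1.61, 1.50 and 1.55. Among 54 translation factors 38 were lower and 11 higher, with *eIF4E-5*, *eIF4E-3* and *eIF3gb* at 1.93, 1.89 and 1.75. With the testis term 20 of the 54 were lower and 1 was higher. Among the chaperones, *Hsp60B* had 7.93, 9.24, 13.1 and 13.1 RPM in fed mutants, against 1.41, 0.724, 0.578 and 0 RPM in fed controls (log2 fold change 2.86 ± 0.33, limma, adjusted p = 6.64e-06). *Hsp60C* (2.65) and *Hsc70-2* (2.07) were higher too, while *Hsp60* was lower. For *Hsp60B* and *Hsp60C* the lowest library was control replicate 4, as for the testis genes.

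**Figure D5:**
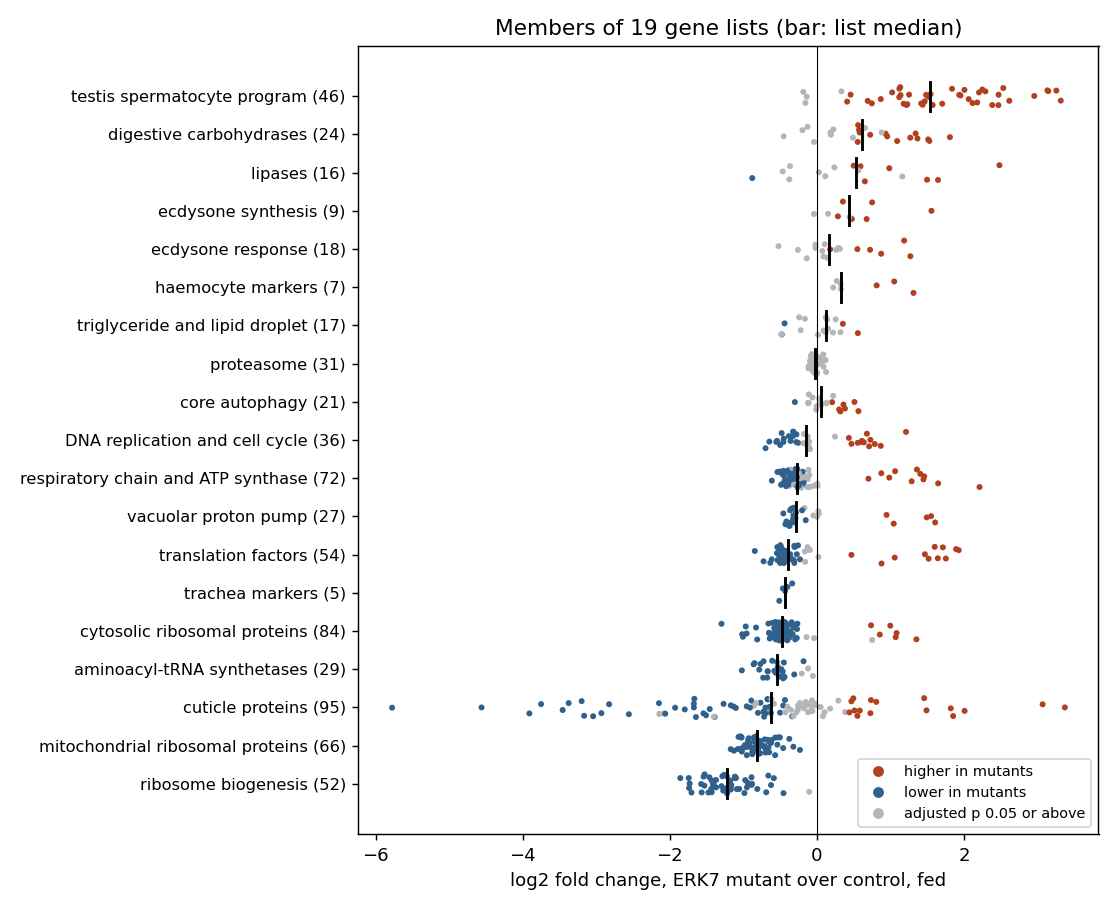
Each row is 1 of 19 gene lists with the number of measured members in brackets, each point a member at its log2 fold change of ERK7 mutant over control (x axis), and the black bar the list median. Red and blue points were called higher and lower, grey points were not called; medians run from 1.53 for the testis program to -1.22 for ribosome biogenesis.

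Of 15 genes of fatty acid synthesis 1 was higher and 2 were lower, against 5 higher and 2 lower after quantile normalization and 2 higher and 5 lower in the fit of the fed libraries alone. Without mutant replicate 2, 3 or 4 or control replicate 4 only 1 was lower, and 2 were higher without control replicate 3. The higher gene was *FASN3*, a fatty acid synthase of oenocytes, with 109, 123, 66.5 and 168 RPM in fed mutants, against 1.73, 2.22, 2.05 and 2.11 RPM in fed controls. Its log2 fold change of 5.21 ± 0.26 (limma, adjusted p = 9.23e-09) was the third largest rise of the table. The main synthase of the fat body, *FASN1*, had 6604, 5962, 5591 and 5652 RPM in fed mutants, against 6118, 5447, 7123 and 7127 RPM in fed controls, which overlapped and was not called (-0.11). *Acsl*, an acyl-CoA synthetase, had a log2 fold change of -0.55. *ATPCL*, the enzyme that makes cytosolic acetyl-CoA, had 1035, 852, 876 and 834 RPM in fed mutants, against 1134, 1112, 1246 and 1268 RPM in fed controls (log2 fold change -0.41 ± 0.15, limma, adjusted p = 0.0316). Its call was lost without mutant replicate 2, 3 or 4 or control replicate 3 or 4 (limma adjusted p up to 0.0787), after median centring and after quantile normalization (adjusted p = 0.461). *FASN3* was not called between fasted mutants and fasted controls (-0.50).

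Of 17 genes of triglyceride synthesis and lipid droplets 2 were higher and 2 lower in fed mutants, where 51.5% of the whole table was called. In the fit of the 8 fed libraries alone 5 were higher and 5 lower, and after quantile normalization 6 were higher and 1 lower (median 0.23). Without mutant replicate 4 or control replicate 2 or 3 only 1 was lower. *CdsA*, a branch point between membrane and storage lipid, was higher by 0.35, and *CG10671*, related to the FIT proteins of droplet formation, had a log2 fold change of -0.44. *Seipin*, a droplet assembly protein, had 45.9, 48.1, 48.4 and 43.3 RPM in fed mutants, against 64.6, 73.5, 61.4 and 62.5 RPM in fed controls. All mutant libraries lay below all control libraries, but it was not called in the model over all 16 libraries, with a log2 fold change of -0.48 ± 0.23 (limma, adjusted p = 0.0897). In the fit of the 8 fed libraries alone its adjusted p was 0.000597. *CG4729*, an acyltransferase of triglyceride synthesis (Agpat3), had log2 fold changes of -0.16, and *fabp*, a fatty acid binding protein, 0.32, neither of them called.

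Of 16 measured lipase genes, of 23 listed, 7 were higher and 1 lower (median 0.53), and after quantile normalization 7 were higher and 3 lower. In fasted larvae none of the 16 was higher and 8 were lower (median -0.67), and the interaction with diet was called for 8. *CG6277*, a pancreatic-type lipase gene, had 130.5, 67.9, 132 and 152 RPM in fed mutants, against 47.4, 14.7, 9.95 and 21.7 RPM in fed controls (log2 fold change 2.48 ± 0.36, limma, adjusted p = 5.67e-05), and its neighbours in the family, *CG6271* and *CG6283*, had log2 fold changes of 1.65 and 0.99. *mag*, the lipase of the gut that also acts on sterol esters, had 1048, 1048, 739 and 1144 RPM in fed mutants, against 361, 294, 464 and 293 RPM in fed controls (log2 fold change 1.50 ± 0.19, limma, adjusted p = 1.31e-05). The fat body lipase gene *bmm*, named here after its value was seen, was higher by 0.59. *Lip4* was higher by 0.50, although the sign turned after quantile normalization (-0.05), and *CG34448* stayed near the detection limit in both genotypes, with at most 1 read in a mutant library and 11 in a control library. Of 24 measured genes of digestive carbohydrases 14 were higher and none lower (median 0.62). In the fits that left out fed libraries, 9 to 14 were higher and 0 to 1 lower. *LManIV*, an alpha-mannosidase, had 109, 106, 118 and 105 RPM in fed mutants, against 59.1, 30.3, 19.7 and 24.1 RPM in fed controls (log2 fold change 1.81 ± 0.41, limma, adjusted p = 0.00186). Control replicate 1 was the closest to the mutants. Of 25 digestive serine proteases 3 were higher and 7 lower (8 higher and 6 lower after quantile normalization), among them *yip7* (-1.12) and *Jon99Fi* (-1.45). Over all genes 25.6% were higher and 26.0% lower. With the testis term 2 carbohydrase genes were higher.

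In sugar breakdown, the enzymes that pass electrons from glycerol phosphate to the mitochondrion were lower. *Gpdh*, the cytosolic glycerol-3-phosphate dehydrogenase, had 692, 678, 685 and 714 RPM in fed mutants, against 1174, 1209.5, 1355 and 1309.6 RPM in fed controls (log2 fold change -0.86 ± 0.13, limma, adjusted p = 6.88e-05). *Gpo-1*, its mitochondrial counterpart, had 255, 209, 185 and 212 RPM in fed mutants, against 443, 465, 518 and 468 RPM in fed controls (log2 fold change -1.14 ± 0.11, limma, adjusted p = 1.73e-06). *Hex-C*, a hexokinase, had a log2 fold change of -1.25, whereas *Hex-A*, another hexokinase, was not called (-0.18). Of 15 genes in this list 4 were higher and 3 lower, against 10 higher and 3 lower after quantile normalization and 2 higher without mutant replicate 2. *ImpL3*, lactate dehydrogenase, was higher by 0.58, with mutant replicate 2 as its highest library at 493 RPM, and without that library the call was lost (log2 fold change 0.44, limma adjusted p = 0.0508). Of 17 genes of serine, methionine and one-carbon metabolism 8 were lower and 1 was higher. *CG11899*, a phosphoserine aminotransferase of serine synthesis, had 9.72, 13.5, 15.5 and 7.75 RPM in fed mutants, against 33.4, 40.7, 47.0 and 40.3 RPM in fed controls (log2 fold change -1.75 ± 0.18, limma, adjusted p = 2.73e-06). *Gnmt*, glycine N-methyltransferase, which uses up methyl groups, had 133, 138, 215 and 259 RPM in fed mutants, against 58.2, 51.6, 82.0 and 37.5 RPM in fed controls (log2 fold change 1.68 ± 0.34, limma, adjusted p = 0.000837). *Cbs*, which leads homocysteine to cysteine, had a log2 fold change of -0.77. Among detoxification families, 27 of 72 cytochrome P450 genes were higher and 16 lower, and 11 of 29 glutathione S-transferase genes were higher and 5 lower. Of 29 glucuronosyl transferase genes 7 were higher and 11 lower. Over all genes 25.6% were higher and 26.0% lower. In the fits that left out fed libraries, 20 to 27 P450 genes were higher and 12 to 16 lower. In the same fits 9 to 13 glutathione S-transferase genes were higher. Without control replicate 2 only 6 glucuronosyl transferase genes were lower, and 7 without mutant replicate 2 or control replicate 4. In the transferase family *Ugt37c1* had 33.7, 34.5, 33.0 and 22.5 RPM in fed mutants, against 148, 172, 115 and 210.2 RPM in fed controls (log2 fold change -2.33 ± 0.19, limma, adjusted p = 3.34e-07).

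*CG32249* (FBgn0052249, chromosome arm 3L, 4470001 to 4471012 in the release 6 assembly, + strand), a gene of no known role here, had the next largest rise after *Lsp1alpha*, with 279, 449, 225 and 432 RPM in fed mutants, against 10.2, 3.83, 5.07 and 4.91 RPM in fed controls. The lowest mutant library was 22.0 times the highest control library, and the log2 fold change was 5.65 ± 0.29 (limma, adjusted p = 9.23e-09).

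Markers of the tissues of a larva were checked for shifts in composition. The 4 measured fat body markers, of 6 listed, were not called. *Rfabg*, the lipoprotein precursor of the fat body, had 18689, 17139, 17667 and 18919 RPM in fed mutants, against 16890.2, 15515, 16619.5 and 18311 RPM in fed controls. The muscle marker *Mhc*, the myosin heavy chain, had a log2 fold change of -0.11 and was not called, and 1 of 5 muscle markers was (after quantile normalization 3 were higher and 2 lower, and no marker was called without mutant replicate 1 or 4 or control replicate 2, 3 or 4). The 5 tracheal markers were all lower, between -0.51 and -0.34. *uif* had 218, 220.5, 216 and 223 RPM in fed mutants, against 290.4, 278, 304 and 287 RPM in fed controls (log2 fold change -0.40 ± 0.10, limma, adjusted p = 0.00371), and after quantile normalization 3 of the 5 were lower. Their summed level was 1687 to 2047 RPM in fed mutants, against 2362 to 2623 RPM in fed controls. Of 7 blood cell markers 3 were higher, or 5 in the fit of the fed libraries alone, after median centring and after quantile normalization. *PPO1*, a prophenoloxidase of crystal cells, had 319, 293, 272 and 385 RPM in fed mutants, against 122, 127, 134 and 119.6 RPM in fed controls (log2 fold change 1.31 ± 0.11, limma, adjusted p = 5.06e-07). *PPO2*, another one, was higher by 1.05. *eater*, a phagocytosis receptor of plasmatocytes, was higher by 0.81, while *Hml* and *NimC1*, defining genes of the same cells, were not called (0.27 and 0.22). Of 10 imaginal disc genes 5 were higher and 1 lower (none lower without mutant replicate 3 or 4 or control replicate 1, 2 or 4), led by *Dll* (5.46, 4.95, 3.52 and 5.22 RPM in fed mutants, against 1.68, 2.12, 1.86 and 2.38 RPM in fed controls) and *dac*, with log2 fold changes of 0.94 and 0.87. Among 7 neuronal markers *Syt1* had 28.1, 27.5, 27.4 and 33.0 RPM in fed mutants, against 13.1, 10.7, 12.0 and 9.98 RPM in fed controls (log2 fold change 1.27 ± 0.14, limma, adjusted p = 3.95e-06), but *elav*, the defining marker of neurons, was not called (0.15), and *nSyb*, which acts at the same synaptic vesicles, was lower (-0.31). Of 6 oenocyte markers 2 were higher, *FASN3* and *Cyp4g1* (0.55), and 2 lower, among them the elongase *CG18609* (-1.20). Without mutant replicate 3 or 4 or control replicate 2, 3 or 4 only 1 was lower.

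Some transcripts were at or near the detection limit in 1 genotype at this depth. In fed mutants 23 genes had 3 reads or fewer in every library while all control libraries were higher, and in fed controls 59 genes did so while all mutant libraries were higher. In the first set the cuticle gene *Cpr35B* had 0.115, 0, 0 and 0 RPM in fed mutants, against 9.68, 14.9, 5.65 and 13.3 RPM in fed controls. Another cuticle gene, *Cpr76Ba*, had 0.115, 0, 0 and 0 RPM in fed mutants, against 5.79, 10.1, 3.53 and 7.23 RPM in fed controls. In the second set *CG3397* (chromosome arm 3R) had 11.0, 0.556, 8.01 and 12.5 RPM in fed mutants, against 0, 0, 0 and 0 RPM in fed controls, with mutant replicate 2 far below the other 3. It had 0 reads in every control library of both diets. *TwdlH*, a Tweedle gene, had at most 3 reads in any mutant library of either diet, against 0.514 to 203 RPM in the control libraries. Whether these follow from *ERK7* or from other differences between the lines cannot be told apart.

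Calls were made at similar shares on the large chromosome arms. The share of genes called was 51.7% on chromosome arm 2L, 51.2% on 2R, 52.5% on 3L, 50.6% on 3R and 52.0% on X, and 45.2% of the 84 genes on chromosome 4. On chromosome 4, 38.1% of genes were higher and 7.14% lower. Within 0.25 Mb of *Erk7* on either side, 38.8% of 49 genes were called, and within 1 Mb 46.4% of 138 genes. Next to *Erk7*, *CR17438*, a non-coding gene (X, 9259218 to 9260522), had 2.01, 2.93, 4.34 and 3.68 RPM in fed mutants, against 0.541, 0.621, 0.128 and 0 RPM in fed controls (log2 fold change 1.68 ± 0.24, limma, adjusted p = 3.99e-05), with the same order of libraries as *Erk7*. On the other side *CG17440* had a log2 fold change of 1.05.

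Immune genes were high in a single library. The summed level of 17 antimicrobial peptide genes was 26.9 to 591 RPM in fed mutants, against 19.3 to 107 RPM in fed controls, with mutant replicate 3 alone at 591 RPM. Of the 17 genes 1 was called higher and 1 lower. The higher call was lost in each of the 8 fits that left out 1 library, and the lower one without mutant replicate 3 or control replicate 4. Without mutant replicate 3, 51 of 52 ribosome biogenesis genes and 44 of 95 cuticle genes were lower and 41 of 46 testis genes were higher.

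These differences were then set beside those between fasted mutants and fasted controls, which share no library with the fed comparison. In fasted larvae 4678 genes (44.7%) were called. Of the 5390 genes called in fed larvae, 2282 were called in the same direction in fasted larvae, which is 42.3% of the fed calls and 48.8% of the fasted calls. The genotype difference itself differed between diets for 3338 genes (31.9%, limma interaction). Ribosome biogenesis genes had a median of -0.13 and 11 of 52 genes lower in fasted mutants, against -1.22 and 51 of 52 in fed mutants, and a called interaction for 49 of 52 genes. Testis genes had a median of 0.96 in fasted larvae with 36 of 46 higher. Cuticle genes had a median of -1.13 with 64 of 95 lower. An interaction was called for 5 testis genes and 41 cuticle genes.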

How the data were processed

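RNA was sequenced from whole male larvae in 16 libraries, 4 for each of 2 genotypes and 2 diets, and only the fed comparison is described in depth. The authors trimmed reads with Trimmomatic, aligned them with TopHat2 2.1.0 to the FlyBase genome, counted them over exons by strand with HTSeq 2.7.6 and left out genes with low counts. The library protocol in the labels names no step that keeps strand, so genes with an overlapping antisense partner are uncertain. The deposited signal values are read counts scaled by the authors to the effective library size, named RPM here, and dividing by the value of 1 read gave whole reads throughout. Columns of the authors' own comparisons (coefficients, test statistics, p-values) were not used.

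Values were analysed as log2(RPM + 1) in R 4.3.3 with limma 3.58.1, fitting 4 group means over 16 libraries. Calls used a Benjamini-Hochberg adjusted p under 0.05 over all genes. edgeR 4.0.16, DESeq2 1.42.0 and limma-voom on the recovered reads were alternatives, with others on scaling, filters, thresholds, libraries, a replicate block and a testis marker term. The fit was also run on simulated data with the same spread setting for every gene and few changed genes. Those settings differ from these data, so that run is a check of the code and not of the calls. Libraries held 16482553 to 20601418 reads in the fed groups, and limits from a count of 0 cover counting error only. Genes named in the text were the 12 largest rises and 12 largest falls without overlap above the median level, up to 4 leading called members of each list (any member of lists of up to 15), *Erk7* and genes the study names, genes with at most 3 reads in 1 genotype, and called neighbours of *Erk7*. Other genes are said to be chosen after their values were seen. The lists and the comparison were chosen with earlier results of these data known.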

Additional observations from a re-analysis of the deposited data

Results flagged for a closer look

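Among 186 sets of 4 fed libraries looked at (38 genes and the summed levels of 55 gene lists, in each genotype), 1 library stood far from the other 3 in 5 sets, where chance alone gives about 1 in 20. *CG32266* had 281.6 RPM in control replicate 2, against 136 to 150.1 RPM in the other fed controls. Summed over the list, endoplasmic reticulum folding genes reached 12560 RPM in control replicate 4, against 14026 to 14308 RPM in the others. Antimicrobial peptide genes summed to 590.9 RPM in mutant replicate 3, against 26.9 to 41.1 RPM in the other fed mutants. In mutant replicate 1 the summed level of heat shock protein genes was 5161 RPM, against 4468 to 4566 RPM in the others, and that of neuron markers 157.5 RPM, against 152 to 152.1 RPM.

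For 18 of the same 38 genes the genotype difference itself differed between diets in limma's interaction test, given here as the log2 fold change of mutant over control in fasted larvae minus that in fed larvae. It was negative for *CG32249* (-3.55), *CG6277* (-3.46), *Cpr49Ac* (-2.90), *betaTub85D* (-1.89), *S-Lap4* (-1.70), *Lip4* (-0.80) and *Ilp3* (-0.62). It was positive for *Seipin* (2.57), *sug* (1.79), *CG14374* (1.79), *CG9780* (1.72), *CG13068* (1.48), *TwdlO* (1.45), *nclb* (1.31), *CG4729* (0.84), *ATPCL* (0.82), *RpL32* (0.54) and *Cdk7* (0.34). *Seipin*, *sug*, *CG4729* and *Ilp3* were not called between the genotypes in fed larvae. Over the whole table the interaction was called for 3338 genes (31.9%), and genes outside the 38 were not listed here, among them *FASN3*, at -5.70.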

How the results depend on the processing

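Leaving out each fed library in turn gave 4809 to 5183 called genes, 2414 to 2587 higher and 2395 to 2672 lower, and an *Erk7* log2 fold change between 1.29 and 1.74. Without both mutant replicate 3 and control replicate 4, chosen after the data were seen, there were 4655 called genes (2319 higher, 2336 lower) and *Erk7* was at 1.19. With the testis marker term 1644 genes were called, 511 higher and 1133 lower, and *Erk7* turned to -0.51. Of the 117 called genes followed here, 52 lost their call in that fit. Requiring an absolute log2 fold change above 0.5 left 2959 genes (1714 higher, 1245 lower) and above 1 left 1373 (1011 higher, 362 lower). Leaving out genes under the 25th percentile of level gave 4029 called genes, 1562 higher and 2467 lower. Median centring gave 3064 higher and 2316 lower, and quantile normalization 2891 higher and 3055 lower. The sign turned with the testis term for *Hsp60C* (-0.0377), *Hsc70-2* (-0.0552), *eIF4E-5* (-0.29), *eIF4E-3* (-0.84), *ATPsynbetaL* (-0.68), *Lsp1beta* (-0.58), *can* (-0.24), *Rbp4* (-0.77), *vas* (-1.32) and *roX2* (-0.13). It turned after quantile normalization for *Ilp3* (-0.39), *Lip4* (-0.0533), *Rfabg* (-0.24) and the medians of TOR and nutrient stress genes (0.0832) and amino acid transporters (0.0518). The testis term is the mean of 6 markers that include *can* and *Rbp4*, so in that fit the differences of the 6 must cancel out on average. The turns of *can* and *Rbp4* are therefore not separate results. Beyond this and the smaller number of genes tested under the level filter, the cause was not tested. No pairing by replicate number was seen, with residuals of same-numbered fed libraries correlating at -0.22, 0.13, -0.17 and -0.17. Differently numbered libraries were not compared, so whether a pairing exists was not tested. A fit with the replicate number as a block called 5366 genes (2661 higher, 2705 lower) and gave *Erk7* 1.59. Genes with a few reads in a library, such as *CG3397*, carry the largest counting error.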

Other observations

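Further gene groups were counted in fed mutants against fed controls without a test of the group. Of 16 heat shock protein genes 7 were higher and 5 lower, of 29 genes of endoplasmic reticulum folding 1 was higher and 7 lower (3 lower without mutant replicate 3 or after quantile normalization, 4 lower without mutant replicate 2 or control replicate 1). Of 19 fatty acid elongases 6 were higher and 5 lower, and amino acid transporters were split, with 5 of 18 higher and 7 lower. For 6 further lists the counts moved with the setting. Of 23 sarcomere genes 5 were higher and 1 lower (13 higher and 5 lower after quantile normalization, 8 higher without mutant replicate 3, 2 higher without mutant replicate 1 or 4 or control replicate 2 or 3). Of 42 genes of chitin and the peritrophic matrix 5 were higher and 14 lower (9 higher and 8 lower after quantile normalization, 3 higher without mutant replicate 2). In lipid breakdown 3 of 22 beta-oxidation genes were lower (2 lower and 4 higher after quantile normalization, 1 lower without mutant replicate 2, 3 or 4 or control replicate 3). Of 9 genes of trehalose and glycogen 4 were higher and 1 lower (7 higher and none lower after quantile normalization). Of 14 lipoproteins and lipid carriers 3 were higher and 3 lower (5 higher and 4 lower after quantile normalization). Juvenile hormone genes gave 2 of 7 higher and 1 lower (none after quantile normalization, 1 higher without mutant replicate 1 or 2 or control replicate 2 or 3). Among tissue markers, 3 of 6 Malpighian tubule genes were higher (1 without mutant replicate 3 or control replicate 4), 2 of 4 prothoracic gland genes were higher, 2 of 6 glial genes were lower (1 without mutant replicate 3 or control replicate 1), 1 of 5 midgut genes was lower (none without mutant replicate 3 or control replicate 2 or 4), and the 1 measured salivary gland marker was not called.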
